A study of Mus musculus with 4 samples.

Results

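The genes described here are 34 genes of the NF-kB pathway, namely 5 subunits of the transcription factor, 9 inhibitors and feedback genes, 3 targets that act inside the cell, 14 secreted targets and 3 surface targets. They were taken from a named list, and each was read from the probe set that the platform annotation assigns to that gene alone. Of the 34, 32 were found among the 19937 genes measured this way, each on 1 probe set. The subunit gene Nfkb1 and the complement gene C3 had no such probe set and were not analysed here. Of the 32 genes, 26 passed the filter on dim genes, a mean log2 value above 6.42 over the 4 arrays, and were tested.

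Transcript levels were measured on 4 arrays, 2 from cells kept in 100 nM olaparib with 0.01% DMSO and 2 from cells kept in 0.01% DMSO alone. Olaparib inhibits the DNA repair enzymes PARP1 and PARP2. All cells were primary neurospheres, floating cultures of stem and progenitor cells, grown from the wall of the lateral ventricle of C57BL/6 mice aged 9 to 12 weeks. Both groups received non-targeting siRNAs and a virus carrying Pax6, a factor that drives neuronal differentiation. Then came 36 h of culture with drug or solvent and, at the end, 10 h on laminin without growth factors. The labels place the drug or solvent in these 10 h of differentiation. The labels call the second array of each group a biological replicate, and name neither the mice behind a culture nor any sorting of transduced cells. The p-values therefore rest on the spread between these cultures, most of it shared over all genes tested. That shared spread counted for 18.1 degrees of freedom, against 2 from the gene itself. A gene whose arrays vary more than most thus has a smaller SE than its own spread would give. The series set neuronal differentiation under PARP inhibition against differentiation under standard conditions.

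NF-kB is a family of dimeric transcription factors held in the cytoplasm by inhibitors of the IkB family. Receptors for tumour necrosis factor, interleukins or microbial products activate a kinase that marks the inhibitors for destruction, and the freed dimers enter the nucleus. They switch on chemokines, cytokines and adhesion molecules, together with their own inhibitors, which end the response. In brain tissue the pathway is best known from microglia and reactive astrocytes, and PARP1 has been described as a co-activator of NF-kB transcription in other cells.

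The labelled cell type was checked against its markers. All 6 astrocyte markers and all 5 measured stem and progenitor markers lay above array background in both groups, while of 10 microglial markers 4 lay above it with olaparib and 6 with DMSO. The microglial markers Aif1, Csf1r, Itgam and Ptprc were below it in both. The mean log2 level of the 10 microglial markers was 6.55 and 6.43 with olaparib, against 6.46 and 6.49 with DMSO, and 0 of the 6 tested passed the test. Of 10 endothelial, pericyte and fibroblast markers, 2 lay above background with olaparib and 4 with DMSO, and their mean level was 6.40 and 6.33 with olaparib, against 6.41 and 6.39 with DMSO. The 6 astrocyte markers averaged 9.71 and 9.95 with olaparib, against 10.18 and 10.14 with DMSO. Among them Gfap fell by 1.03 and Aqp4 by 0.71 on the log2 scale (adjusted p = 6.12e-05 and 0.000703 in limma), while the other 4 did not pass, with changes of -0.31 for Slc1a3, -0.10 for Slc1a2, -0.015 for Aldh1l1 and 0.17 for S100b. Dcx of migrating neuroblasts fell by 1.05 (adjusted p = 4.36e-06). The 6 neuroblast markers averaged 7.55 and 7.61 with olaparib, against 7.92 and 7.94 with DMSO. Of 6 markers of the oligodendrocyte lineage Cspg4 rose by 0.33 (adjusted p = 0.0122 in limma), a call lost when either DMSO array was left out. The others did not pass, with changes of -0.23 for Pdgfra, -0.16 for Olig2, -0.15 for Olig1, -0.06 for Sox10 and 0.26 for Mbp. The mean of the 6 was 7.97 and 8.03 with olaparib, against 8.01 and 7.99 with DMSO. Of 5 ependymal markers 4 were tested and 0 passed. The part of these cell type markers in the results below was not tested. In such mixed cultures, fewer cells of a type and less RNA per cell cannot be told apart.

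The table holds no detection calls, so background was read from 1190 genes of olfactory and vomeronasal receptors, which are mostly silent outside sensory epithelia. Their 95th percentile was a log2 value of 6.46 on the olaparib arrays and 6.42 on the DMSO arrays, each taken over the means of 2 arrays. Some receptor genes lay well above that level, such as Olfr1174 at 7.88 with olaparib and 8.01 with DMSO. By the 95th percentile, 25 of the 32 NF-kB genes were above background with olaparib and 25 with DMSO, and 24 in both. The 30th percentile of all 19937 genes, by mean over the 4 arrays, also lay at 6.42. Most genes of the array thus passed a similar level, and these counts do not set the list apart. All 4 measured subunits, all 3 intracellular targets and all 3 surface targets were above background in both groups. Of 9 inhibitors and feedback genes, 7 were above it with olaparib and 8 with DMSO, and of 13 secreted targets 8 and 7. Cxcl2 was above background with olaparib alone, and Birc3 with DMSO alone. Traf1, Ccl20, Il6, Il1b, Tnf and Saa3 were below it in both groups. Against the highest of 26 genes of unrelated tissues, a stricter level of 7.09 with olaparib and 7.10 with DMSO, only 13 and 11 of the 32 remained. Tnfaip3 lay 0.0048 above the 95th percentile with olaparib and 0.02 with DMSO, so it stood at the edge. Probe sets differ in response, so the levels of different genes are set against background here and not against each other.

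**Figure D1:**
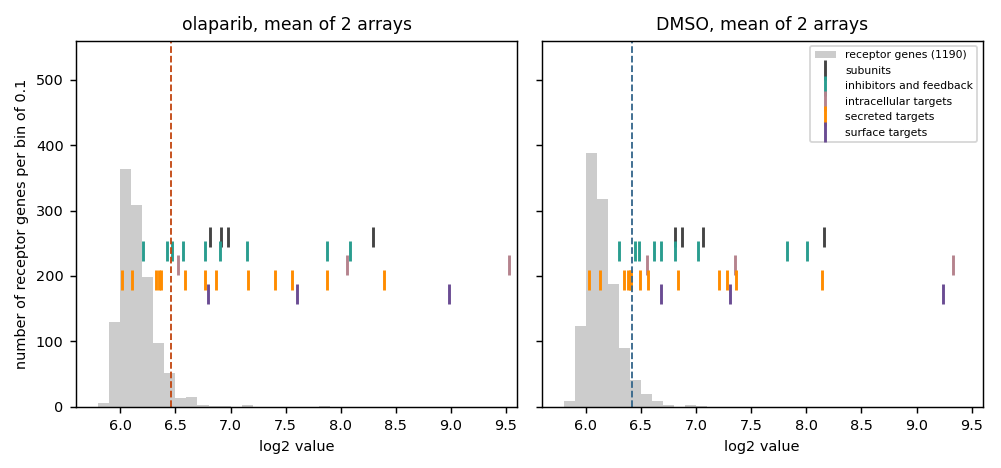
Log2 values of 1190 olfactory and vomeronasal receptor genes (grey bars, number of genes per bin of 0.1) and of the 32 measured NF-kB genes (ticks by role, placed at arbitrary heights), as means of 2 arrays with olaparib (left) and with DMSO (right). Dashed lines mark the 95th percentile of the receptor genes at 6.46 and 6.42, and 25 of 32 NF-kB genes lie to the right of it in each panel.

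Across the NF-kB genes, 4 rose with olaparib and 0 fell, and the 4 were targets: the early response gene Ier3, the chemokine gene Ccl2, the cytokine gene Lif and the lipocalin gene Lcn2. These are 4 of 26 tested genes, where 2.84% of all 13956 genes tested were called higher and 3.37% lower (limma, Benjamini-Hochberg adjusted p under 0.05 over all genes tested). No subunit, inhibitor, feedback or surface gene passed. At an unadjusted p under 0.05, 11 of the 26 were higher and 1 was lower, against 9.18% and 9.88% of all genes tested. Over the 26 tested genes the median change, olaparib minus DMSO on the log2 scale, was 0.13, against 0.0013 over all genes tested. Over all 32 measured genes, the dim ones included, it was 0.09, against 0.0042 over all 19937. On both olaparib arrays 15 of the 32 lay above both DMSO arrays and 7 lay below both, while 10 overlapped. Over all measured genes 21.3% lay above and 20.2% below. The genes were listed because earlier work ties them to NF-kB, and they were chosen with results of these arrays known, so these counts describe the list only.

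With 2 residual degrees of freedom, the 4 calls depend on which rows lend their variance to the estimate. When it was drawn from 21704 probe sets, unnamed ones included, 0 of the 26 genes passed, where 0.00717% of all genes tested were called higher, or 0.10% when adjusted over genes alone. The adjusted p was 0.0588 for Ccl2, 0.0654 for Ier3, 0.207 for Lcn2 and 0.225 for Lif in limma. Where an array was left out, here and below, its group kept a lone array, so the spread within groups came from the other group. Without an olaparib array that was the DMSO pair, and 22 of the 32 genes had the larger SD with olaparib. Calls from such fits are therefore weak evidence. Without DMSO replicate 1, Ier3 and Ccl2 passed, where 0.695% of all genes tested were called higher. Without DMSO replicate 2, Ier3, Ccl2 and Lcn2 passed, where 0.917% were. Without olaparib replicate 1, 11 genes were called higher, where 9.13% of all genes tested were, and without olaparib replicate 2, 5 were, where 4.06% were.

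**Figure D2:**
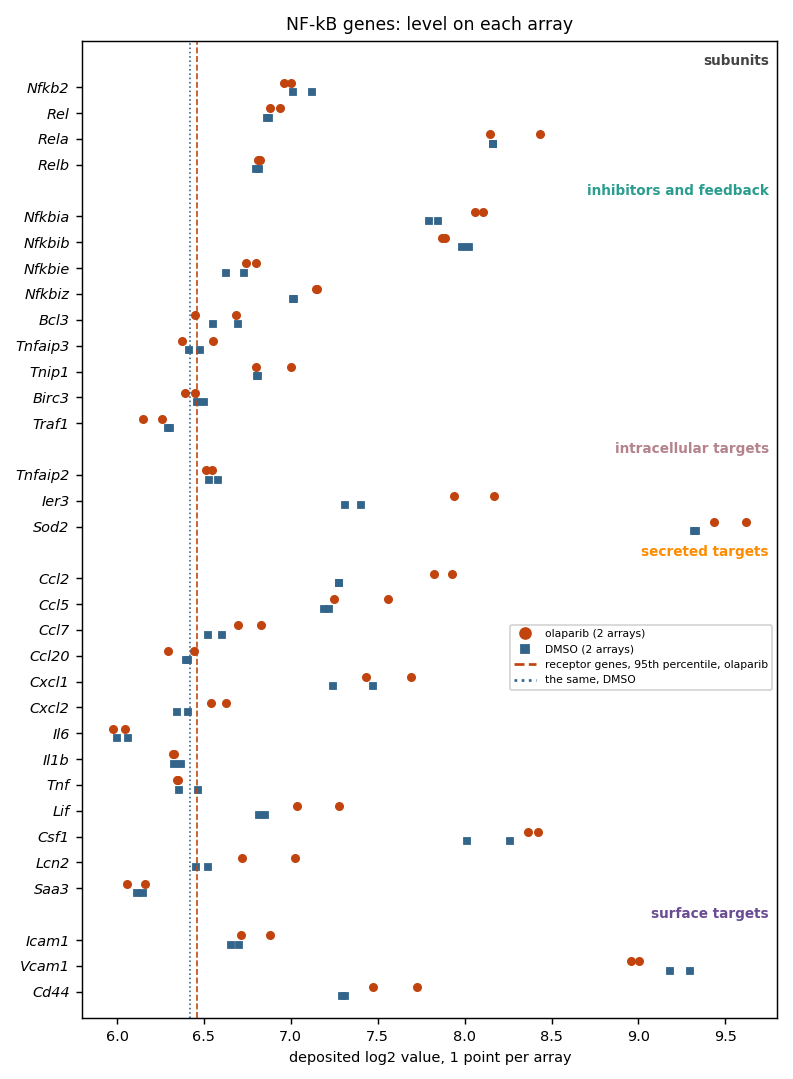
Deposited log2 value (x axis) of the 32 measured NF-kB genes on each array, with olaparib arrays as circles above DMSO arrays as squares in each row and genes grouped by role. The vertical lines mark the background at 6.46 (olaparib) and 6.42 (DMSO). The circles of Ier3, Ccl2, Lif and Lcn2 all lie to the right of their squares, while those of Rela, Relb and Tnfaip3 overlap them.

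Among the subunits, Rela encodes the main transactivating subunit of the classical pathway. Its log2 values were 8.15 and 8.44 with olaparib, against 8.16 and 8.16 with DMSO. The groups overlapped, since olaparib replicate 2 stood above the other 3 arrays and olaparib replicate 1 below them, and the change of 0.13 did not pass (adjusted p = 0.589). Without olaparib replicate 2 that change was -0.017, and without olaparib replicate 1 it was 0.27. In both fits the spread of Rela itself came from the DMSO pair alone, whose SD was 0.0013, against 0.20 with olaparib. Most of the spread used was that shared over all genes tested. It counted for 44.4 degrees of freedom without olaparib replicate 2 and 43.2 without olaparib replicate 1. Nfkb2 encodes the precursor of a subunit used by the alternative pathway. It read 6.96 and 7.00 with olaparib, against 7.12 and 7.01 with DMSO, a change of -0.09 (95% interval -0.25 to 0.08). Relb, the partner of that subunit, read 6.82 and 6.81 with olaparib, against 6.80 and 6.82 with DMSO. Its groups overlapped, and the interval of its change ran from -0.15 to 0.17. Rel, best known from lymphocytes, read 6.88 and 6.94 with olaparib, against 6.88 and 6.86 with DMSO, a change of 0.04 (interval -0.12 to 0.20). The median change of the 4 subunits was 0.03, and 0 of the 4 passed.

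Among the inhibitors and feedback genes, Nfkbia encodes IkB alpha, the inhibitor that NF-kB itself resynthesises. It read 8.06 and 8.10 with olaparib, against 7.80 and 7.85 with DMSO, so both olaparib arrays lay above both DMSO arrays. The change of 0.26 (SE 0.09, interval 0.08 to 0.45) did not pass (adjusted p = 0.0905). It passed without olaparib replicate 1 (adjusted p = 0.0325), and after quantile or cyclic loess normalization (adjusted p = 0.0425 and 0.0463). Nfkbib, the gene of the related inhibitor IkB beta, read 7.89 and 7.87 with olaparib, against 7.98 and 8.03 with DMSO. Its groups did not overlap either, but in the other direction, with a change of -0.13 (interval -0.31 to 0.06, adjusted p = 0.504). Nfkbie, which encodes IkB epsilon, read 6.80 and 6.74 with olaparib, against 6.73 and 6.63 with DMSO (change 0.09, adjusted p = 0.630). The 3 cytoplasmic inhibitors thus had changes of both signs, and none passed.

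Nfkbiz and Bcl3 encode IkB proteins that act in the nucleus on NF-kB dimers bound to DNA. Nfkbiz read 7.14 and 7.15 with olaparib, against 7.02 and 7.01 with DMSO. Its arrays of a group lay close together, and the change of 0.13 (interval -0.02 to 0.29) did not pass (adjusted p = 0.372). Bcl3 read 6.68 and 6.45 with olaparib, against 6.69 and 6.55 with DMSO, and the groups overlapped (change -0.06, adjusted p = 0.829). Tnfaip3 encodes A20, a ubiquitin-editing enzyme that shuts off signalling, and read 6.55 and 6.38 with olaparib, against 6.41 and 6.48 with DMSO. Its groups overlapped too, with values at background on both sides (change 0.02, adjusted p = 0.952). Tnip1, whose product binds A20, read 6.80 and 7.00 with olaparib, against 6.81 and 6.81 with DMSO, where the difference lay in olaparib replicate 2 (change 0.09, adjusted p = 0.640). The ubiquitin ligase gene Birc3 read 6.45 and 6.39 with olaparib, against 6.50 and 6.46 with DMSO, and the adaptor gene Traf1 read 6.26 and 6.15, against 6.29 and 6.30. Both olaparib arrays lay below both DMSO arrays for each gene. Traf1 was under background in both groups, and Birc3 with olaparib but not with DMSO.

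Among the intracellular targets, Ier3 encodes a short-lived protein of stress and survival signalling and is also an immediate early gene. It read 7.94 and 8.17 with olaparib, against 7.40 and 7.31 with DMSO. Both olaparib arrays lay well above both DMSO arrays, and Ier3 rose by 0.70 log2 units with an SE of 0.09, or 1.62-fold (adjusted p = 8.15e-05). Sod2, the superoxide dismutase of mitochondria, read 9.43 and 9.62 with olaparib, against 9.33 and 9.32 with DMSO. Its groups did not overlap, yet the change of 0.20 (interval -0.04 to 0.44) did not pass (adjusted p = 0.370). It passed without olaparib replicate 1, at 0.29 (adjusted p = 0.0367). Tnfaip2, a gene induced by tumour necrosis factor, read 6.54 and 6.51 with olaparib, against 6.58 and 6.53 with DMSO, with overlapping groups (change -0.03, adjusted p = 0.915).

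Among the secreted targets, Ccl2 encodes a chemokine that attracts monocytes. It read 7.93 and 7.83 with olaparib, against 7.27 and 7.28 with DMSO. The gap between the groups was several times the spread within them, and Ccl2 rose by 0.60 (SE 0.08, adjusted p = 0.000135), or 1.51-fold with a 95% interval of 1.34-fold to 1.71-fold. Ccl7, a related chemokine gene and the next protein-coding gene on chromosome 11, read 6.70 and 6.83 with olaparib, against 6.60 and 6.52 with DMSO. Its groups did not overlap, but the change of 0.20 (interval 0.03 to 0.37) did not pass (adjusted p = 0.165), and whether the 2 neighbours differ in their change was not tested. Without olaparib replicate 1 Ccl7 passed, at 0.27 (adjusted p = 0.0175). Ccl5, which attracts T cells, read 7.56 and 7.25 with olaparib, against 7.22 and 7.19 with DMSO. Its difference lay mostly in olaparib replicate 1, and the change was 0.20 (adjusted p = 0.238), 0.05 without that array and 0.35 without olaparib replicate 2 (adjusted p = 0.00608).

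Cxcl1 and Cxcl2 encode chemokines that attract neutrophils and lie next to each other on chromosome 5. Cxcl1 read 7.69 and 7.43 with olaparib, against 7.47 and 7.24 with DMSO. The groups overlapped, and its change of 0.20 did not pass (adjusted p = 0.257), although it did so at 0.33 without olaparib replicate 2 (adjusted p = 0.0166). Cxcl2 read 6.54 and 6.62 with olaparib, against 6.35 and 6.41 with DMSO. Its groups did not overlap, with a change of 0.20 (interval 0.04 to 0.37, adjusted p = 0.155), but the DMSO arrays were at background, so it reached the test through its olaparib arrays. It passed without olaparib replicate 1 (0.25, adjusted p = 0.0198) and under median centring (adjusted p = 0.0403). Ccl20 read 6.44 and 6.29 with olaparib, against 6.41 and 6.39 with DMSO, and was not above background in either group.

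Among the secreted cytokines and acute phase proteins, Lif encodes a cytokine that acts on neural stem cells and promotes astrocyte differentiation. It read 7.04 and 7.28 with olaparib, against 6.85 and 6.82 with DMSO. The olaparib arrays differed from each other by more than the smaller gap to DMSO, and Lif rose by 0.32 (SE 0.08, adjusted p = 0.0249), or 1.25-fold. That call was lost without DMSO replicate 1 (adjusted p = 0.102), without DMSO replicate 2 (0.175), without olaparib replicate 2 (0.20 on the log2 scale, adjusted p = 0.114), without a filter on dim genes (0.0723) and without the trend in the prior (0.0601). Lcn2 encodes an iron-scavenging lipocalin released by reactive astrocytes. It read 7.03 and 6.72 with olaparib, against 6.45 and 6.52 with DMSO, and rose by 0.39 (SE 0.09, adjusted p = 0.0140), or 1.31-fold. Its DMSO mean lay 0.06 above background, so the size is uncertain, and the change was 0.23 without olaparib replicate 1 (adjusted p = 0.0368) and lost its call when DMSO replicate 1 was left out (0.35, adjusted p = 0.128). Under a filter at the 50th percentile Lcn2 was not tested.

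Csf1, the growth factor of macrophages and microglia, read 8.37 and 8.42 with olaparib, against 8.26 and 8.01 with DMSO. Both olaparib arrays were higher, and the spread lay in the DMSO pair. The change of 0.26 (interval 0.04 to 0.47) did not pass (adjusted p = 0.159), and was 0.13 without DMSO replicate 2, 0.38 without DMSO replicate 1 and 0.28 without olaparib replicate 1, where it passed (adjusted p = 0.0447). The inflammatory cytokine genes Il6, Il1b and Tnf were at background throughout. Il6 read 5.98 and 6.05 with olaparib, against 6.06 and 6.00 with DMSO. Il1b read 6.32 and 6.33 with olaparib, against 6.33 and 6.37 with DMSO, and Tnf read 6.35 and 6.35, against 6.35 and 6.47. The acute phase gene Saa3 read 6.16 and 6.06 with olaparib, against 6.15 and 6.11 with DMSO. A change in these 4 genes was not detectable at this signal.

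Among the surface targets, Cd44 encodes the hyaluronan receptor, found on astrocytes and progenitor cells. It read 7.47 and 7.73 with olaparib, against 7.29 and 7.31 with DMSO. Both olaparib arrays were higher, and the change of 0.30 (SE 0.09, interval 0.11 to 0.48) fell just short of the threshold (adjusted p = 0.0523). It passed in 6 of 16 alternatives, among them without olaparib replicate 1, where it was 0.42 (adjusted p = 0.000864), and it was 0.17 without olaparib replicate 2. Vcam1, an adhesion molecule that stem cells of the adult subventricular zone also carry, read 8.96 and 9.00 with olaparib, against 9.29 and 9.18 with DMSO. It was the one gene of the 26 with an unadjusted p under 0.05 and a lower value with olaparib, a change of -0.26 (interval -0.48 to -0.03, adjusted p = 0.182), and it passed after quantile and cyclic loess normalization (adjusted p = 0.0411 and 0.0450). The part of the astrocyte markers given above in the value of Vcam1 was not tested. Icam1, an adhesion molecule for leukocytes, read 6.88 and 6.72 with olaparib, against 6.65 and 6.70 with DMSO, with a change of 0.12 (interval -0.05 to 0.29).

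**Figure D3:**
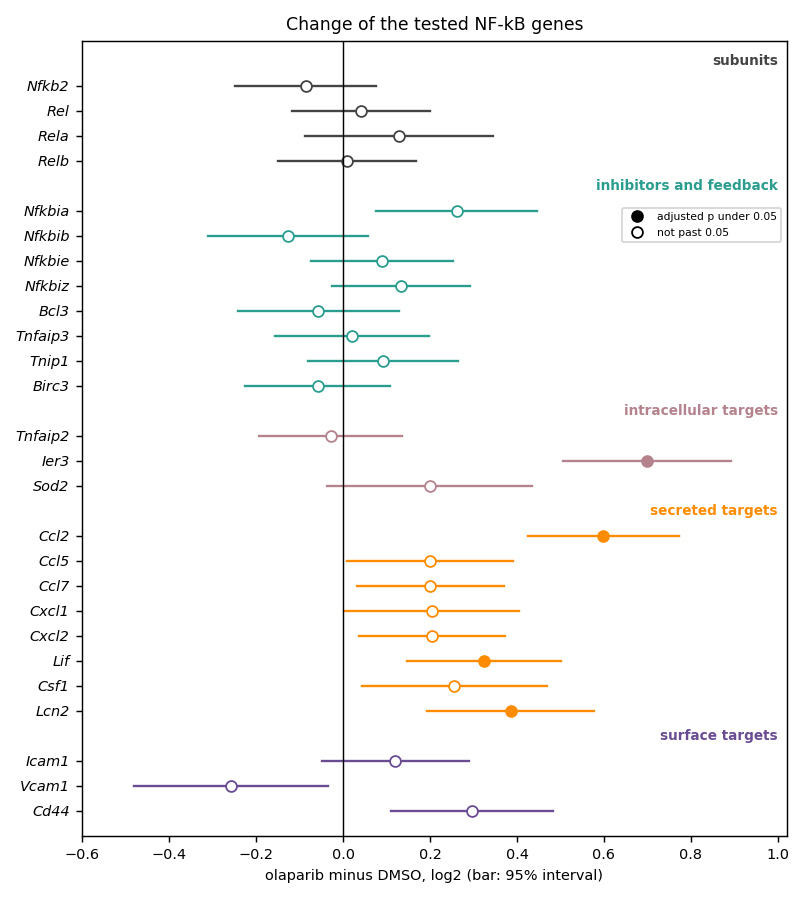
Change of the 26 tested NF-kB genes, olaparib minus DMSO on the log2 scale (x axis), by role, with bars for 95% intervals from limma (2 arrays per group) and filled points for an adjusted p under 0.05. Ier3, Ccl2, Lif and Lcn2 are filled, at 0.70, 0.60, 0.32 and 0.39, and the intervals of all 4 subunits cross 0.

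Feedback genes were then set beside targets. Of the 9 measured inhibitors and feedback genes 8 were tested and 0 passed, and the changes of the 9 ran from -0.13 to 0.26 with a median of 0.02. Of the 16 measured secreted and surface targets 11 were tested, of which 3 rose and 0 fell, where 2.84% of all genes tested rose and 3.37% fell. The changes of the 16 ran from -0.26 to 0.60 with a median of 0.20. The median over all 19937 genes was 0.0042. The difference between the 2 groups of genes was not tested, since their members were chosen with results known. Within the secreted targets the changes split by signal. The 8 tested ones, Ccl2, Ccl5, Ccl7, Cxcl1, Cxcl2, Lif, Csf1 and Lcn2, were higher with olaparib by 0.20 to 0.60, of which 3 passed. The 5 dim ones, Ccl20, Il6, Il1b, Tnf and Saa3, had changes of -0.06 to -0.02. The filter itself favours genes that are high in either group, so the first range is not support for a common rise. The median of the 8 tested feedback genes was 0.06, and that of the 8 tested secreted targets 0.23. These cover only genes that passed the filter on all 4 arrays and leave out the surface targets, so they are not support for a difference either. Over the 9 feedback genes and 13 secreted targets measured, the medians were 0.02 and 0.20. When olaparib replicate 1 was left out, the medians of the same 8 and 8 tested genes were -0.0036 and 0.26. They were 0.08 and 0.28 without olaparib replicate 2. Without DMSO replicate 1 they were 0.05 and 0.33, and without DMSO replicate 2 they were 0.05 and 0.21.

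**Figure D4:**
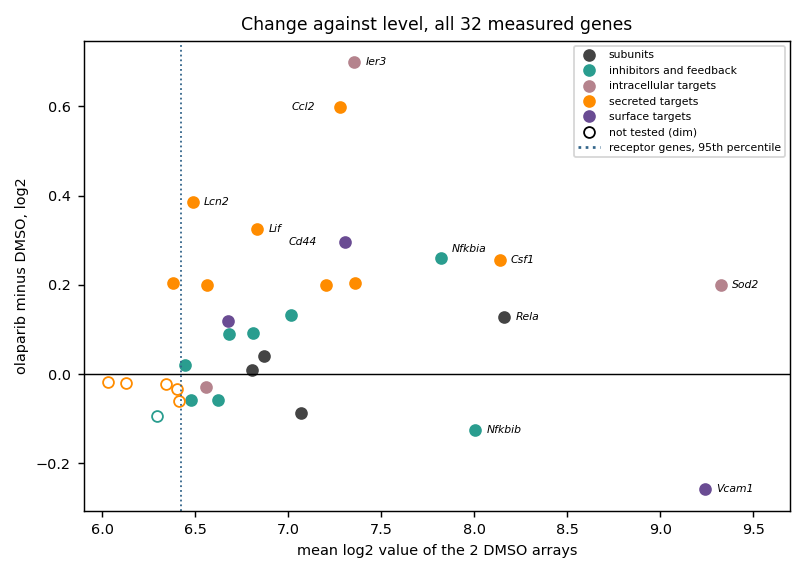
Change of all 32 measured NF-kB genes (y axis, olaparib minus DMSO, log2) against the mean log2 value of the 2 DMSO arrays (x axis), coloured by role. Open circles are the 6 genes under the filter, which lie between -0.09 and -0.02, and the dotted line is the background at 6.42. Genes are not replicates, and Vcam1, at -0.26, is the lowest point.

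The spread behind these values was wider with olaparib. The median SD of the 32 genes was 0.0707 with olaparib and 0.0315 with DMSO (n = 2 each), and 22 of 32 had the larger SD with olaparib. Over all genes tested the median SD was also larger with olaparib, 0.0767 against 0.0483, so this is not particular to the list. The 2 olaparib arrays differed by over 0.2 in 9 of the 32 genes. Olaparib replicate 1 was the higher one for Bcl3, Ccl5, Cxcl1 and Lcn2, and olaparib replicate 2 for Rela, Tnip1, Ier3, Lif and Cd44. Among the 4 genes that rose, Ccl2 alone had olaparib arrays within 0.2 of each other. The DMSO arrays differed by over 0.2 in Cxcl1 and Csf1.

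The promoter sequences shown are those of the 3 genes that rose and have an entry in the RefSeq promoter table (GRCm38.p6), namely Ier3, Lcn2 and Lif, and of Nfkbia, Cxcl1 and Cxcl2, which NF-kB is known to switch on and which did not pass. Each run is the 250 bases before the start of the gene, 5′ to 3′ on the strand of the gene, and capitals mark matches on either strand to GGGA, then any 4 bases, then CC, a simple form of the kappaB site that NF-kB binds. Overlapping matches are marked as 1 run.
Ier3, chr17:35821463-35821712, plus strand: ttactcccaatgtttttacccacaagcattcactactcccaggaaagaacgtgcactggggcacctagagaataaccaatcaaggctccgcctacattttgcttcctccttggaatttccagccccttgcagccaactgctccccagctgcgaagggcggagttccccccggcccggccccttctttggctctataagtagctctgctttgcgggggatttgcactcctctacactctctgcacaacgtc
Lcn2, chr2:32387740-32387989, minus strand: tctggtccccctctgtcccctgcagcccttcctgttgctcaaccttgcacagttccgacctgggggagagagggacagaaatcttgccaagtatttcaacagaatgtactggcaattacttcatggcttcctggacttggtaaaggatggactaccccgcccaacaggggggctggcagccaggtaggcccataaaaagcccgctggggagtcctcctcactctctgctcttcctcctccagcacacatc
Lif, chr11:4257318-4257567, plus strand: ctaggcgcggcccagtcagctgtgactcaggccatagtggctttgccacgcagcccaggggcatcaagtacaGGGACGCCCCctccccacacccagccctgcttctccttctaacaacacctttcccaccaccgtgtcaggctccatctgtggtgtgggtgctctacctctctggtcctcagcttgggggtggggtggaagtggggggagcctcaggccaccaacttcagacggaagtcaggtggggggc
Nfkbia, chr12:55492648-55492897, minus strand: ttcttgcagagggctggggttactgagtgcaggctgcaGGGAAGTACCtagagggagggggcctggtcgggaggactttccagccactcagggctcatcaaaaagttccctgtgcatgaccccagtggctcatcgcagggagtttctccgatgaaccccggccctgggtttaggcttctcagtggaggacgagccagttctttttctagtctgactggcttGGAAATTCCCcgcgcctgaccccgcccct
Cxcl1, chr5:90890995-90891244, plus strand: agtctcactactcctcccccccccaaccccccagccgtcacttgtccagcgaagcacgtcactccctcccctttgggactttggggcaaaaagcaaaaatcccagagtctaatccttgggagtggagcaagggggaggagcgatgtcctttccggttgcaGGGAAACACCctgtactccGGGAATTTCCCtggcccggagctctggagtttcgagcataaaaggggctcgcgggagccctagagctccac
Cxcl2, chr5:90903649-90903898, plus strand: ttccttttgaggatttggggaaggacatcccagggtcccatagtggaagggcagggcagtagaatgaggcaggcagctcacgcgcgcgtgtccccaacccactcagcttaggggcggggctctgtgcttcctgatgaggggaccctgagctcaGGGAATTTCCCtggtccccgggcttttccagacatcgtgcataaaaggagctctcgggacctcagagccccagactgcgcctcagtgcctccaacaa
Cxcl1 and Cxcl2 share the run GGGAATTTCCC, at positions -71 to -61 in Cxcl1 and -97 to -87 in Cxcl2, where -1 is the base before the start. Nfkbia holds GGAAATTCCC at -29 to -20, while the match of Lif, GGGACGCCCC at -178 to -169, is rich in G and C. Ier3 and Lcn2 had no match.

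Of the 34 genes, 27 had an entry in that table, and 16 of these (59.3%) held a match within 250 bases before to 50 bases after a start. The share over all 27025 genes of the table was 22.9%, and over all 32851 promoters 20.7%. The genes were listed as known NF-kB genes, so this difference is no independent result. By role, a match was found in 3 of 3 subunits, 5 of 8 inhibitors and feedback genes, 8 of 11 secreted targets, 0 of 3 intracellular targets and 0 of 2 surface targets. Among the genes that rose 1 of 3 held a match, and among the tested genes that did not pass 11 of 17. A match is a run of letters and not a measured binding site. Its absence from this window says nothing of sites elsewhere, or of sites of another form inside the window. For instance, Ier3 holds GGAATTTCC and Nfkbia GGACTTTCC, which lack the full GGGA and were not marked. The promoters of Nfkb1, Relb, Nfkbiz, Ccl2, Ccl5, Ccl7 and Vcam1 were not used here.

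Of 65 further pathway genes, 60 were measured and 49 tested, and of these 6 rose and 0 fell, where 2.84% of all genes tested rose and 3.37% fell. Among upstream receptors 1 of 7 tested rose, among adaptors and kinases 1 of 15, among ubiquitin enzymes and brakes 0 of 17, and among other targets 4 of 10. The receptor gene Tnfrsf1a, through which tumour necrosis factor signals, read 9.34 and 9.81 with olaparib, against 9.20 and 9.05 with DMSO. It rose by 0.45 (adjusted p = 0.0479), but not without DMSO replicate 1 (adjusted p = 0.182), DMSO replicate 2 (0.484) or olaparib replicate 2 (0.22 on the log2 scale, adjusted p = 0.156), and it was 0.68 without olaparib replicate 1. The call was also lost without a filter on dim genes (adjusted p = 0.0975) and under median centring (0.106). Myd88, the adaptor of Toll-like and interleukin receptors, read 7.03 and 7.01 with olaparib, against 6.78 and 6.75 with DMSO. It rose by 0.26 (adjusted p = 0.0476), and that call was lost when either DMSO array was left out (adjusted p = 0.350 and 0.383), without a filter on dim genes (0.0981), without the trend in the prior (0.0863) and with the robust prior (0.0514).

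Among the other targets, Ptgs2, the inducible cyclooxygenase, read 7.51 and 7.79 with olaparib, against 6.65 and 6.86 with DMSO, and rose by 0.90 (adjusted p = 8.51e-06). Gadd45b, a stress gene that restrains JNK signalling, read 7.88 and 8.04 with olaparib, against 7.47 and 7.42 with DMSO, and rose by 0.52 (adjusted p = 0.000842). Cflar, an inhibitor of death receptor signalling, read 8.93 and 9.02 with olaparib, against 8.35 and 8.51 with DMSO, and rose by 0.55 (adjusted p = 0.00264). The call was lost when DMSO replicate 1 was left out (adjusted p = 0.203), and averaged over its 3 probe sets the change was 0.33. Cxcl10, a chemokine gene that interferons also induce, read 9.77 and 9.95 with olaparib, against 9.47 and 9.38 with DMSO. It rose by 0.44 (adjusted p = 0.0264), a call that was lost without DMSO replicate 1 (adjusted p = 0.311) or DMSO replicate 2 (0.470), and under median centring (0.140). When the 21704 probe sets shared the estimate of spread in limma, 0 of the 6 passed, with adjusted p from 0.0561 for Ptgs2 to 0.292 for Tnfrsf1a. Adjusted over genes alone in that fit, Ptgs2 passed (0.0459).

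**Figure D5:**
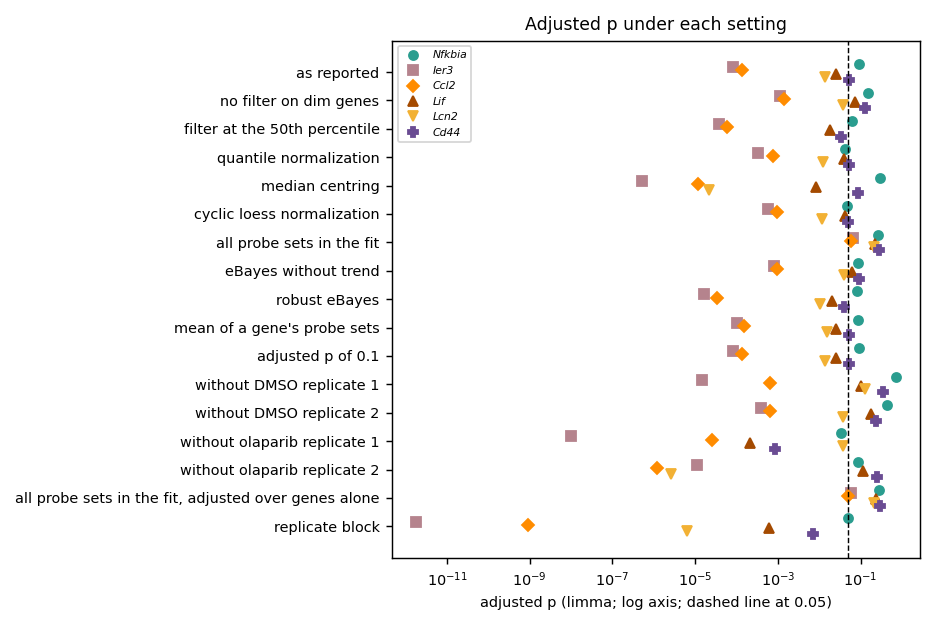
Adjusted p from limma (x axis, log scale, dashed line at 0.05) of the 6 NF-kB genes with an adjusted p under 0.1, under the reported setting and each of 16 alternatives (rows). Ier3 and Ccl2 lie left of the line except where all probe sets share the estimate of spread, and Lif, Lcn2, Cd44 and Nfkbia lie on both sides of it. In the row for an adjusted p of 0.1 the values are those of the reported setting.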

How the data were processed

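Microarrays were made from 40 ng of total RNA per sample, amplified and carrying a biotin label, per the labels' protocols. The deposited values of the authors are on a log2 scale, judged from their range. The steps of correction, normalization and summarisation are not given in the sources used here. No scan date was given.

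The table holds 34760 probe sets. The platform annotation gives a single gene for 21640 of them, and the one with the highest mean over the 4 arrays stood for its gene, with symbols updated through RefSeq (GRCm38.p6). Array medians lay between 6.60 and 6.68, and the number of arrays limits the precision. Genes whose mean exceeded the 30th percentile were tested in limma 3.58.1 under R 4.3.3 (lmFit, eBayes with trend=TRUE, two-sided, olaparib minus DMSO, Benjamini-Hochberg adjustment over all 13956 genes tested, threshold 0.05). Every adjusted p comes from limma. The reported fit does not pair arrays. Intervals are 95% and use the same moderated spread. The fit was tested on simulated arrays of the same genes with planted changes.

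The genes, role groups and other lists were chosen with earlier results of these data known. By rule all 34 genes were described, and of the other pathway genes those past the threshold, at most 4 per group by smallest p. The alternatives changed the filter, normalization, prior, rows per gene, threshold and arrays. The alternatives for other pathway and marker genes, adjusting over genes alone with all probe sets in the fit, and the replicate block, were chosen after seeing the data. Protein sequences were not used here. Plots used matplotlib 3.10.9 and Python 3.11.15.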

Additional observations from a re-analysis of the deposited data

How the results depend on the processing

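The titles number the first array of each group, but nothing ties an olaparib array to a DMSO array, so the arrays share only a number. The differences between the arrays of a group correlated across genes at 0.17 between the groups. With the replicate block, which leaves 1 residual degree of freedom, 8 NF-kB genes were called higher (Nfkbia, Ier3, Ccl2, Ccl7, Cxcl2, Lif, Lcn2 and Cd44), and 761 genes in all were higher and 854 lower. In that fit the weight of the shared spread was estimated as infinite, so no gene's own spread entered its p-value. The same held under median centring and without either DMSO array. For the NF-kB genes, alternatives of filter, prior, rows, threshold and block left each log2 change as it was. Only normalization or leaving out an array could turn its sign, and a threshold of 0.1 could not lose a call. Most values were thus bound to keep their direction. Of 406 values of the 26 tested genes under the alternatives, 362 kept their direction and their side of the threshold, 14 were no longer past it, 23 came past it and 7 changed sign. Those 7 came from leaving out an array, in genes that had not passed: Rela ranged from -0.017 to 0.27, Relb from -0.00051 to 0.019, Bcl3 from -0.17 to 0.059, Tnfaip3 from -0.069 to 0.11 and Tnip1 from -0.011 to 0.20. The cause was not tested. Over the arrays left out, the number of NF-kB genes called higher ranged from 2 to 11. With all probe sets in the fit it was 0, also when adjusted over genes alone (Ccl2 0.0506, Ier3 0.0586), against 4 as reported. The number called lower was 1 under quantile and 1 under cyclic loess normalization (Vcam1), against 0, where 1 of the 26 genes had an unadjusted p under 0.05 and a lower value. Over all genes tested, 397 were higher and 471 lower. The counts were 257 higher without a filter (more genes tested), 1 and 11 with all probe sets in the fit, 14 and 30 there when adjusted over genes alone, and 606 and 715 at an adjusted p of 0.1. Lower genes were 779 under quantile and 732 under cyclic loess normalization. Leaving out an array gave 97 to 1274 higher and 161 to 1032 lower genes. These fits take the remaining array of a pair to vary as the opposite group does. The median SD over genes tested was 0.0767 with olaparib and 0.0483 with DMSO. Against the highest gene of unrelated tissues, 13 NF-kB genes lay above background with olaparib and 11 with DMSO, in place of 25 and 25. The low signal of many of these genes limits what can be read from them.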
